A study of Mus musculus with 2 samples.

Results

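Receptors for metabolites, lipids and cell contacts were compared between splenic CD8+ cytotoxic T cells and CD4+ helper T cells of the mouse. The group was chosen by gene name: every probe outside the array's controls was taken whose transcript belongs to a mouse gene with a symbol starting with Gpr and a digit, Adgr, P2ry, S1pr, Lpar, Ptger or Ffar, or to Sucnr1, with Gpr83 left out. The rule gave 112 receptor genes on 147 probes, of 17176 genes named on the array. By family there were 62 Gpr genes, 24 adhesion receptors (Adgr), 9 nucleotide receptors (P2ry), 5 sphingosine 1-phosphate receptors (S1pr), 5 lysophosphatidic acid receptors (Lpar), 3 prostaglandin E2 receptors (Ptger), 3 fatty acid receptors (Ffar) and the succinate receptor. A further 22 symbols of the RefSeq gene table met the rule but had no matched probe, Ffar3, Lpar5 and Ptger1 among them, and were not analysed here.

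G protein-coupled receptors cross the membrane as a bundle of helices and pass the binding of a ligand to G proteins inside the cell, which raise or lower cyclic AMP or release calcium. In T cells, sphingosine 1-phosphate and oxysterols steer cells through the spleen and lymph nodes, while prostaglandin E2 and adenosine raise cyclic AMP and dampen activation. Adhesion receptors carry a long extracellular region that is cut from the membrane part during maturation and binds matrix or neighbouring cells.

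RNA came from sorted splenocytes, labelled as CD8+ cytotoxic T cells in 1 sample and CD4+ helper T cells in the other. Both samples were wild type and of strain C57B6, and the sources used here give no sort marker, number of mice or age. Each sample was hybridised to 1 one-colour Agilent array, so there were no biological replicates, no p-value could be computed and every error below is technical. The question set by the series title is how the expression profiles of both cell types differ.

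Of the array's spots outside the controls, 58.6% on the CD8+ array and 63.1% on the CD4+ array were well above background by the scanner software's own flag. Levels are given as scaled signal, the processed signal of a probe with the array's 75th percentile set to 100, and the error after ± is the scanner software's error of the spot on the same scale. Differences are log2 values of the CD8+ array minus the CD4+ array, so that a positive value is higher in CD8+ cells. The labels were checked with genes outside the receptor group: Cd8a had a scaled signal of 11109 on the CD8+ array, against 105 on the CD4+ array, and Cd4 had 14.7 on the CD8+ array, against 60.4 on the CD4+ array. All 8 T cell markers, Cd3d, Cd3e and Cd3g among them, were well above background on both arrays. Over 3971 genes with several probes above background, the log2 difference varied between probes of a gene with an SD of 0.23. Among probes with a mean processed signal under 100 the SD was 0.42, over 406 genes with several such probes. Of the receptor genes, 81 had a single probe.

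At least 1 probe was well above background for 65 of the 112 receptor genes (58.0%) on the CD8+ array and for 72 (64.3%) on the CD4+ array, against 70.6% and 74.96% of all named genes on the same arrays. On both arrays 62 receptor genes were above background, 2 were so on the CD8+ array alone, 9 on the CD4+ array alone, and 38 on neither. Of all 17176 named genes, 11950 were above background on both arrays, 179 on the CD8+ array alone, 921 on the CD4+ array alone and 4122 on neither. The CD4+ array thus held more genes above background on 1 array alone over all genes as well. Adgrd1, an adhesion receptor, was left out of the counts of differences because its probes were each above background on a different array. Among the 62 genes measured on both arrays, the 2 prostaglandin E2 receptors and the 7 nucleotide receptors all lay on the CD4+ side, apart from P2ry2 under normexp background correction and in the authors' series values.

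Of these 62 genes, 4 (6.45%) were at least 2-fold higher on the CD8+ array, where 1.94% of all 11950 genes measured on both arrays were, and 5 (8.06%) were at least 2-fold higher on the CD4+ array, where 3.83% of all genes were. The other 53 lay within 2-fold. With genes above background on 1 array alone set at their lower bound, 5 of 73 receptor genes (6.85%) passed 2-fold on the CD8+ side, against 2.19% of all genes, and 9 (12.3%) passed it on the CD4+ side, against 4.67% of all genes. A gene measured on 1 array alone could only be higher there, so the second pair of counts describes the arrays and supports no direction. The median difference of the 62 genes was -0.18, with 20 genes above 0 and 42 below, while the median over all genes was 0.02 and 53.7% of them lay above 0. Both arrays measured RNA pooled over many cells, so that fewer cells carrying a receptor and less of its RNA per cell cannot be told apart.

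The split depended on how the arrays were scaled. With each array scaled to its median, 6 of the 62 genes were at least 2-fold higher on the CD8+ array, where 2.68% of all genes were, and 4 on the CD4+ array, where 3.06% were. With bounds included the counts were 7 and 8. That scaling adds the same 0.14 to every gene, so it moved the median of all genes to 0.17 and the receptor genes' median to -0.04. The gap of 0.20 between these medians could not change. With normexp background correction the receptor median was 0.00 and the median of all genes 0.04, so the shift of the whole group toward the CD4+ side was not kept under that correction.

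**Figure D1:**
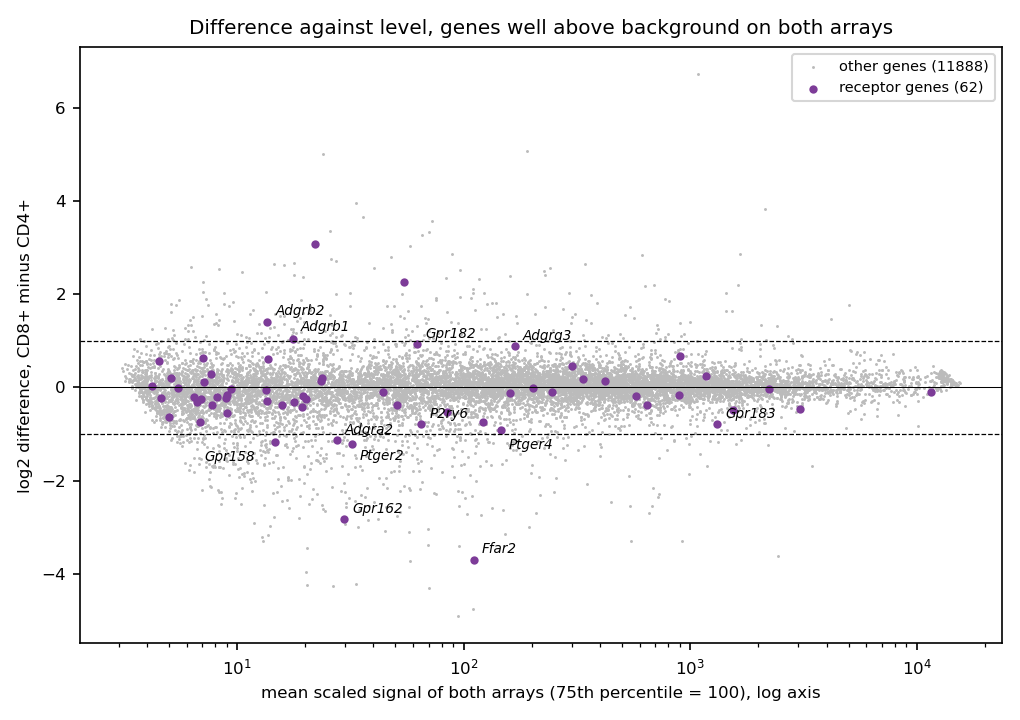
Log2 difference of the CD8+ minus the CD4+ array (vertical axis) against the mean scaled signal of both arrays (horizontal log axis) for the 62 receptor genes (purple) and the other genes well above background on both arrays (grey); dashed lines mark 2-fold. Ffar2 and Gpr162 lie far below the lower line at -3.70 and -2.82, while the receptor genes with the highest mean signal lie within 2-fold.

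The receptors of succinate and fatty acids showed the widest gaps of the group. Sucnr1 encodes the receptor for succinate, an intermediate of the citric acid cycle that cells release under low oxygen and inflammation. Its scaled signal was 1.1 ± 0.67, not well above background, on the CD8+ array and 60.1 ± 6.04 on the CD4+ array, at least 18.4-fold higher in CD4+ cells. That bound set the CD4+ level against the lowest signal that counted as above background on the CD8+ array, a scaled signal of 3.27. Ffar2, the receptor for acetate, propionate and other short-chain fatty acids made by gut bacteria, had 30.7 ± 3.16 on the CD8+ array and 399 ± 39.9 on the CD4+ array, a difference of -3.70 or 12.97-fold. Ffar2 was thus measured on both arrays and Sucnr1 on the CD4+ array alone. Ffar4, a receptor for long-chain fatty acids, had 5.53 ± 0.92 on the CD8+ array and 3.71 ± 0.75 on the CD4+ array, close to background on both. Ffar1, which binds medium- and long-chain fatty acids and neighbours Ffar2 with 1 coding gene between them, was above background on neither array. With normexp the bound for Sucnr1 was 4.63-fold, and the difference of Ffar2 was 8.37-fold, still on the CD4+ side.

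Sucnr1 and P2ry1 lie next to each other on chromosome 3 with 1 coding gene between them. Both were above background on the CD4+ array alone, P2ry1 by 1 of its 2 probes. The 250 bases before the Sucnr1 start are shown because this gene had the largest bound of the group. They come from RefSeq (GRCm38.p6, chr3:60081619-60081868, plus strand) and were searched on both strands for motifs of lymphocyte transcription factors. For Runx factors the letters searched were TGTGGT. For the ETS family, which binds a core shared by many members, they were GGAAG. For GATA factors, which include the helper lineage factor of T cells, they were AGATAA. No match was found in the Sucnr1 window, which says only that these letters are not there, and no matches overlapped in the windows printed below.
Sucnr1: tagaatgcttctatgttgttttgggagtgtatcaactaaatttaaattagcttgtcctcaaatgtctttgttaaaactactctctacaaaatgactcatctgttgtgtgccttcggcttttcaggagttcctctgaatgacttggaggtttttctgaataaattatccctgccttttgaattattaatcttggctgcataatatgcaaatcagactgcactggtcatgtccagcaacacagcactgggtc

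All 3 prostaglandin E2 receptors with a probe had their higher value on the CD4+ array. Ptger4 encodes EP4, which couples to the stimulatory G protein and raises cyclic AMP; its scaled signal was 105.8 ± 10.6 on the CD8+ array and 200.01 ± 20.0 on the CD4+ array. The difference, -0.92 or 1.89-fold, was just inside the 2-fold threshold. Ptger2, which encodes EP2 and couples in the same way, had 21.1 ± 2.22 on the CD8+ array and 48.8 ± 4.91 on the CD4+ array, 2.31-fold higher in CD4+ cells. Ptger3 encodes EP3, which acts mainly through inhibitory G proteins and lowers cyclic AMP. One of its probes had 0.74 ± 0.74, not well above background, on the CD8+ array and 9.07 ± 1.1 on the CD4+ array, at least 2.77-fold higher in CD4+ cells, and its other probe was above background on neither. Ptger2 and Ptger4 therefore shared their direction and Ptger3 rested on a dim signal. Under normexp Ptger4 was 1.68-fold and Ptger2 1.66-fold higher on the CD4+ array, and the bound for Ptger3 was 1.51-fold, so that none of the 3 reached 2-fold.

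Ptger2 and Ptger4 answer the same ligand through the same G protein, and their promoter windows are shown side by side for that reason. Both are RefSeq sequences of GRCm38.p6, for Ptger2 at chr14:44987861-44988110 on the plus strand and for Ptger4 at chr15:5244188-5244437 on the minus strand, written in the direction of transcription. Capitals mark matches to the ETS letters GGAAG or their reverse complement. The Ptger4 window held 2, at 217 and 70 bases before the start, and the Ptger2 window held no Runx, ETS or GATA match.
Ptger2: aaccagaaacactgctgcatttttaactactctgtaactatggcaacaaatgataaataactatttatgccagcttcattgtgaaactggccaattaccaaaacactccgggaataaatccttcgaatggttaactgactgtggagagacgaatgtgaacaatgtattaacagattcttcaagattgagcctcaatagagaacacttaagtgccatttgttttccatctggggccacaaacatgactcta
Ptger4: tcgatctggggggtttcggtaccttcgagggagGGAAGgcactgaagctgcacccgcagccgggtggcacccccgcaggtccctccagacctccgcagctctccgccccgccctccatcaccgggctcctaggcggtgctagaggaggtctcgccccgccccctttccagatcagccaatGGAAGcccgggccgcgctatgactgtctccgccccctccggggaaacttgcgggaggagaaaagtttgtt

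Such matches are common. Of 32851 promoter windows of this length in the RefSeq table, 64.1% held the ETS letters, 14.05% the Runx letters and 9.99% the GATA letters. Among 116 windows of 84 receptor genes the shares were 65.5%, 15.5% and 7.76%.

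The receptors of sphingosine 1-phosphate were near equal on both arrays. S1pr1, which lets lymphocytes leave the spleen and lymph nodes along the lipid's gradient, had a scaled signal of 842 ± 84.2 on the CD8+ array and 945 ± 94.5 on the CD4+ array, a difference of -0.17 that was smaller than the SD between probes of a gene. S1pr4, a second receptor of this lipid found mainly on blood cells, had 355 ± 35.5 on the CD8+ array and 258 ± 25.8 on the CD4+ array, a difference of 0.46 or 1.38-fold. S1pr5, known for guiding natural killer cells out of the bone marrow and lymph nodes, had 4.52 ± 0.83 on the CD8+ array and 2.85 ± 0.64, not well above background, on the CD4+ array. The latter exceeded the lowest signal above background there, 2.54, so the value for S1pr5, 1.59-fold higher in CD8+ cells, was the plain ratio of both signals. It was 1.20-fold with normexp and 1.27-fold with the series values. Only S1pr5 of the 5 was above background on a single array. S1pr3 (24.7 ± 2.56 on the CD8+ array, 22.4 ± 2.32 on the CD4+ array) and S1pr2 (8.25 ± 1.08 on the CD8+ array, 9.64 ± 1.13 on the CD4+ array), both better known from vessels and other tissues, differed by 0.14 and -0.22. S1pr2 turned positive with normexp and with the authors' series values.

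Of the lysophosphatidic acid receptors, 2 of 5 were above background, on both arrays. Lpar6 had 2190.4 ± 219 on the CD8+ array and 2258 ± 226 on the CD4+ array, a difference of -0.04, and its second probe gave 0.09. Lpar2 was dim, with 8.82 ± 1.1 on the CD8+ array and 5.69 ± 0.79 on the CD4+ array, 1.55-fold higher in CD8+ cells. Lpar1, Lpar3 and Lpar4 were above background on neither array.

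All 7 P2ry genes measured on both arrays had the lower value on the CD8+ array, with a median difference of -0.30, and the direction of P2ry2 alone turned under 2 alternatives. P2ry6, the receptor for UDP, had 49.4 ± 4.99 on the CD8+ array and 85.6 ± 8.58 on the CD4+ array, 1.73-fold higher in CD4+ cells. P2ry12 and P2ry13 both sense ADP and lower cyclic AMP. P2ry12 had 7.46 ± 1.03 on the CD8+ array and 11.0 ± 1.26 on the CD4+ array, and P2ry13 had 44.6 ± 4.51 on the CD8+ array and 58.2 ± 5.85 on the CD4+ array. Their differences were -0.56 and -0.39. P2ry1, which senses ADP and releases calcium, had 3.11 ± 0.78, not well above background, on the CD8+ array and 12.6 ± 1.39 on the CD4+ array. By that probe it was at least 3.84-fold higher in CD4+ cells, but 1.42-fold with normexp. Its second probe was above background on neither array.

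The other P2ry differences were small. P2ry14, a receptor for UDP-glucose and other UDP sugars, had 18.4 ± 1.97 on the CD8+ array and 21.8 ± 2.25 on the CD4+ array. P2ry2, which responds to ATP and UTP, had 5.996 ± 0.893 on the CD8+ array and 6.91 ± 0.90 on the CD4+ array, a difference of -0.21 that became 0.05 with normexp and 0.02 with the series values. P2ry10, despite its name a receptor for lysophosphatidylserine, had 539 ± 53.9 on the CD8+ array and 615 ± 61.5 on the CD4+ array. Its neighbour P2ry10b had 12.2 ± 1.39 on the CD8+ array and 15.1 ± 1.60 on the CD4+ array. The differences of P2ry14, P2ry10 and P2ry10b were -0.25, -0.19 and -0.30, about the SD between probes of a gene. P2ry4, another receptor for UTP, was above background on neither array.

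Among the Gpr genes, Gpr65 was one of the brightest. It encodes a proton sensor of lymphocytes that raises cyclic AMP, and had 1283 ± 128 on the CD8+ array and 1078 ± 108 on the CD4+ array, a difference of 0.25. Gpr4 and Gpr132, which are often grouped with it, had differences of -0.23 and -0.31, so that all 3 lay within 2-fold.

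Among the receptors of oxysterols and lysophosphatidylserine, Gpr183 and Gpr34 leaned to the CD4+ array without reaching 2-fold. Gpr183 binds hydroxylated cholesterols and positions B cells, dendritic cells and helper T cells at the edge of the splenic follicle. It had 999 ± 99.9 on the CD8+ array and 1724 ± 172 on the CD4+ array, a difference of -0.79 or 1.73-fold, and 1.73-fold again with normexp. Its neighbour on chromosome 14, Gpr18, a lipid receptor of lymphocytes whose ligand is debated, had 439.7 ± 44.0 on the CD8+ array and 399 ± 39.9 on the CD4+ array, a difference of 0.14. The lysophosphatidylserine receptors Gpr34 and Gpr174 had differences of -0.52 and -0.10, that of Gpr174 smaller than the SD between probes of a gene. Gpr34 had 70.7 ± 7.10 on the CD8+ array and 101.3 ± 10.15 on the CD4+ array.

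Several genes named Gpr encode proteins of internal membranes. Gpr108, a Golgi protein, had 563 ± 56.3 on the CD8+ array and 731 ± 73.1 on the CD4+ array, and Gpr107, its relative, had 238 ± 23.8 on the CD8+ array and 256 ± 25.6 on the CD4+ array. Gpr137b, a protein of lysosomes, had 94.3 ± 9.45 on the CD8+ array and 158 ± 15.8 on the CD4+ array, 1.68-fold higher in CD4+ cells. Of the 5 such genes, 4 lay on the CD4+ side, as did 20 of the 31 Gpr genes measured on both arrays. Gpr89, the Golgi pH regulator, lay on the CD8+ side at 0.60. Gpr107, at -0.11, turned to 0.03 with scaling to the median.

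Of the other bright Gpr genes, Gpr171 and Gpr182 were higher on the CD8+ array. Gpr171, a lymphocyte receptor for which a neuropeptide has been proposed as ligand, had 1136 ± 114 on the CD8+ array and 712 ± 71.2 on the CD4+ array, 1.60-fold higher in CD8+ cells and 1.59-fold with normexp. P2ry14 lies next to it on chromosome 3 and had the opposite sign. Gpr182, an atypical chemokine receptor known from endothelium, had 86.2 ± 8.65 on the CD8+ array and 45.1 ± 4.55 on the CD4+ array, 1.91-fold higher in CD8+ cells (2.11-fold with scaling to the median). Gpr180 and Gpr146 differed by 0.19 and -0.02, each with a scaled signal above 200 on both arrays.

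Several Gpr genes of orphan or little-studied receptors were at least 2-fold apart. Gpr162, an orphan receptor, had 11.1 ± 1.32 on the CD8+ array and 78.6 ± 7.88 on the CD4+ array, 7.06-fold higher in CD4+ cells and 3.59-fold with normexp. Gpr158, a receptor of neurons, had 9.77 ± 1.19 on the CD8+ array and 22.1 ± 2.27 on the CD4+ array, 2.26-fold higher in CD4+ cells. Gpr149, another orphan, had 0.69 ± 0.69, not well above background, on the CD8+ array and 12.2 ± 1.33 on the CD4+ array, at least 3.74-fold higher in CD4+ cells. For Gpr158 and Gpr149 a second probe was above background on neither array. Gpr141b had 17.1 ± 1.85 on the CD8+ array and 1.85 ± 0.66, not well above background, on the CD4+ array, at least 6.72-fold higher in CD8+ cells. Its neighbour and relative Gpr141 had 6.86 ± 0.99 on the CD8+ array and 8.84 ± 1.04 on the CD4+ array, on the other side of 0. With normexp, Gpr158 was 1.49-fold, Gpr149 1.47-fold and Gpr141b 1.84-fold apart. The 5 remaining genes above background on the CD4+ array alone, Gpr119, Gpr142, Gpr143, Gpr63 and Gpr82, had a scaled signal under 4 there, and none had a bound of 2-fold.

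**Figure D2:**
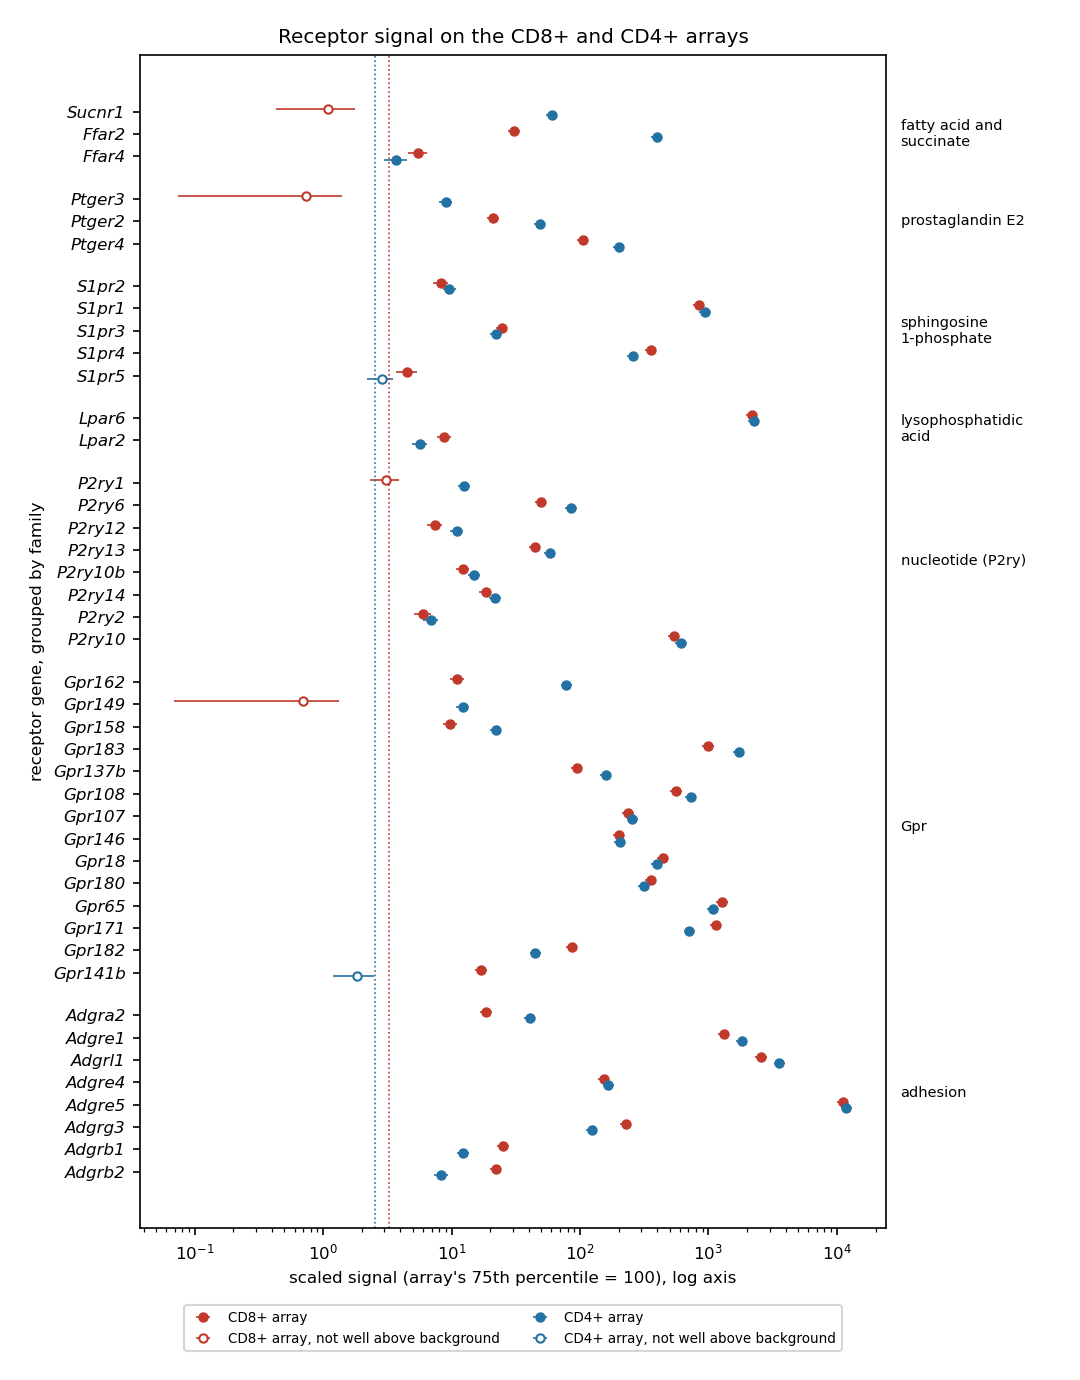
Scaled signal (log axis, 75th percentile of the array = 100) of the receptor genes described in the text, grouped by family down the page, on the CD8+ array (red) and the CD4+ array (blue); bars are the scanner software's error of the spot, open circles are signals not well above background, and dotted lines mark the lowest signal well above background on each array. Sucnr1, Ptger3, P2ry1 and Gpr149 have open circles on the CD8+ array, S1pr5 and Gpr141b on the CD4+ array.

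The adhesion receptors at least 2-fold apart included Adgrb2, Adgrb1 and Adgra2. Adgrb2, of the brain angiogenesis inhibitor family, had 22.1 ± 2.32 on the CD8+ array and 8.33 ± 0.98 on the CD4+ array, 2.66-fold higher in CD8+ cells, and its second probe was above background on the CD8+ array alone. Adgrb1, which helps phagocytes bind dying cells, had 25.2 ± 2.61 on the CD8+ array and 12.3 ± 1.34 on the CD4+ array. It was 2.04-fold higher in CD8+ cells by that probe, but its second probe gave a difference of 0.26 and the mean over both 1.57-fold. Adgra2, which supports Wnt signals in the vessels of the brain, had 18.6 ± 1.98 on the CD8+ array and 40.8 ± 4.11 on the CD4+ array, 2.19-fold higher in CD4+ cells (1.99-fold with scaling to the median).

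Adgrg3 lay near 2-fold and Adgrg1 near 0. Adgrg3 had 229 ± 22.9 on the CD8+ array and 123 ± 12.3 on the CD4+ array, 1.86-fold higher in CD8+ cells (2.05-fold with scaling to the median), with 0.89 and 0.84 from its probes. Adgrg1, known as GPR56 and as a marker of human cytotoxic lymphocytes, was dim and level, with 9.30 ± 1.15 on the CD8+ array and 9.51 ± 1.08 on the CD4+ array.

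The brightest adhesion receptors were within 2-fold. Adgre5 encodes CD97, which is present on most leukocytes, and had 11155 ± 1115 on the CD8+ array and 11873 ± 1187 on the CD4+ array, a difference of -0.09. Its neighbour Adgrl1, a latrophilin, had 2581 ± 258 on the CD8+ array and 3577 ± 358 on the CD4+ array, and its 4 probes ranged from -0.47 to -0.14. Adgre1 encodes F4/80, the macrophage marker, and had 1313 ± 131 on the CD8+ array and 1824 ± 182 on the CD4+ array, a difference of -0.47. Adgre4, a myeloid relative of Adgre1, had 153 ± 15.3 on the CD8+ array and 167 ± 16.7 on the CD4+ array. The median over the 14 adhesion genes measured on both arrays was -0.11, and 0.05 with normexp. Over the 31 Gpr genes the median was likewise -0.11, and 0.04 with normexp. Scaling to the median adds the same 0.14 to every gene and put both families at 0.03 and the median of all genes at 0.17, so their order could not change.

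Near the 2-fold threshold, P2ry6 (1.73-fold), Ptger4 (1.89-fold), Adgrg3 (1.86-fold) and Gpr182 (1.91-fold) lay just inside it. Adgrb1 (2.04-fold), Adgra2 (2.19-fold), Gpr158 (2.26-fold) and Ptger2 (2.31-fold) lay just outside. The errors of these 8 differences ran from 0.20 to 0.23 on the log2 scale, and none of the 8 separates from the threshold by more than 1.5 times its error.

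Of the 14 receptor genes at least 2-fold apart, 5 were so with normexp as well, 2 on the CD8+ side and 3, namely Sucnr1, Ffar2 and Gpr162, on the CD4+ side. With the series values deposited by the authors 6 were, the same 5 and Gpr141b. Under both settings the share of all genes measured on both arrays that were at least 2-fold apart fell as well. Of the 14 receptor genes, those measured on both arrays kept their direction under each of the 8 alternatives that kept the filter on dim probes. For Sucnr1, Ptger3, P2ry1, Gpr149 and Gpr141b the difference was a bound, which could not reverse. Of the 62 genes measured on both arrays, 30 had a mean processed signal under 100, the range where background correction weighs most. Over the 32 brighter genes, 2 were at least 2-fold higher on the CD8+ array and 4 on the CD4+ array, where 1.63% and 2.85% of all genes as bright were. Their median difference was -0.12, against 0.04 over those genes.

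**Figure D3:**
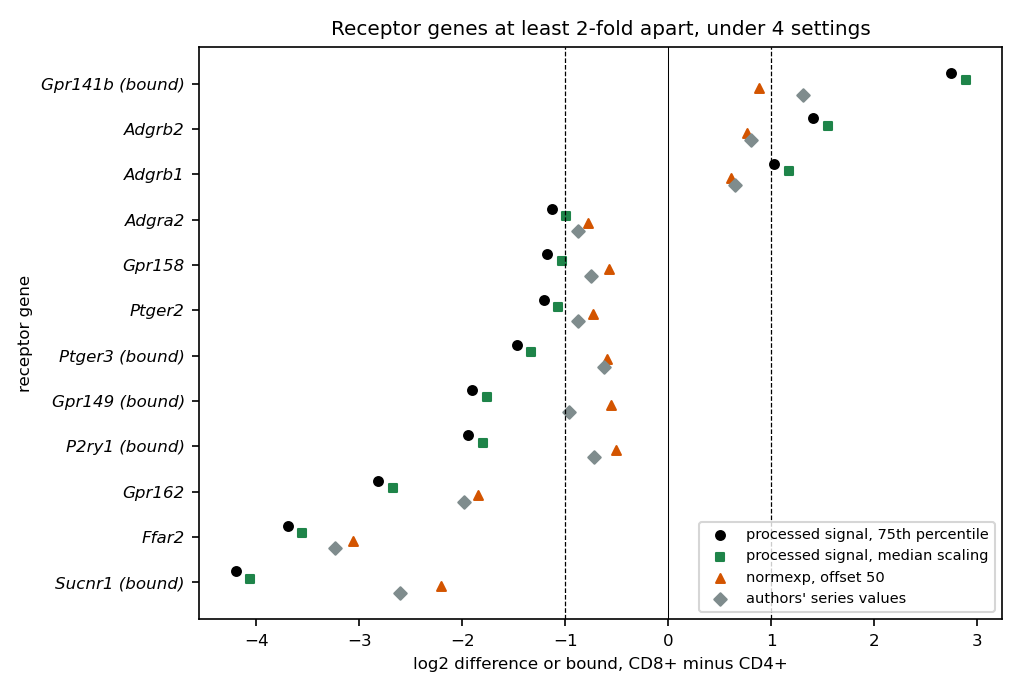
Log2 difference or bound, CD8+ minus CD4+ (horizontal axis), of receptor genes at least 2-fold apart and described in the text, under 4 settings; dashed lines mark 2-fold in each direction. Sucnr1, Ffar2 and Gpr162 stay outside the dashed lines under every setting drawn, and Ptger2, Ptger3, P2ry1, Gpr149, Gpr158, Adgra2, Adgrb1 and Adgrb2 come inside them under both normexp and the authors' series values, while Gpr141b does so under normexp alone.

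Most genes that carry the receptors' signals were within 2-fold. Of 17 G protein subunits measured on both arrays, none was 2-fold apart, with a median of -0.08, against 0.02 over all genes. With 1.94% and 3.83% of all genes at least 2-fold apart on the CD8+ and CD4+ sides, a count of 0 in a list of this size is near the background. Gng12, Gnb4 and Gnaq came nearest to the threshold, 1.90-fold, 1.73-fold and 1.72-fold higher in CD4+ cells. Gng5, Gnai3 and Gng10, the brightest of them, differed by -0.31, -0.15 and -0.45, and Gnas, the stimulatory alpha subunit, had 374 ± 37.5 on the CD8+ array and 232 ± 23.3 on the CD4+ array, a difference of 0.69. Among 6 arrestins and receptor kinases, which switch receptors off, 1 (16.7%) was at least 2-fold higher on the CD4+ array, against 3.83% of all genes. This was Grk3, with 68.8 ± 6.91 on the CD8+ array and 149 ± 14.9 on the CD4+ array, 2.17-fold higher in CD4+ cells by its brightest probe. It was 1.84-fold with normexp, 1.97-fold with scaling to the median and 1.63-fold with the mean over probes. The brighter members of that list, Grk2, Arrb1 and Grk6, differed by 0.27, 0.01 and 0.23.

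Of 25 effectors downstream of the G proteins measured on both arrays, 2 (8%) were at least 2-fold higher on the CD8+ array, against 1.94% of all genes, and 1 (4%) on the CD4+ array, against 3.83% of all genes. Pde2a, a phosphodiesterase that breaks down cyclic AMP and cyclic GMP, had 289 ± 29.0 on the CD8+ array and 99.9 ± 10.01 on the CD4+ array, 2.90-fold higher in CD8+ cells. Pde7a, a phosphodiesterase specific for cyclic AMP, had 482 ± 48.2 on the CD8+ array and 238 ± 23.9 on the CD4+ array, 2.02-fold higher in CD8+ cells (1.68-fold with normexp). Adcy9, an adenylyl cyclase, had 8.97 ± 1.16 on the CD8+ array and 24.5 ± 2.53 on the CD4+ array, 2.73-fold higher in CD4+ cells (1.49-fold with normexp). Adcy7, Arhgef1 and Prkaca, the brightest of the list, differed by 0.38, 0.35 and -0.05. None of the 20 enzymes and transporters that make, break down or carry the ligands was 2-fold apart, again near the background for so short a list, with a median of -0.05; Panx1, Sdhb and Ptges3 differed by 0.01, -0.11 and 0.09.

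Receptors of lipids and metabolites with other names were read from a list of 27 genes on the array, 16 of them above background on both arrays and 6 on the CD4+ array alone. Cnr2, the cannabinoid receptor of immune cells, had 572 ± 57.2 on the CD8+ array and 209 ± 20.9 on the CD4+ array, 2.73-fold higher in CD8+ cells. Tbxa2r, the thromboxane receptor, had 1047 ± 105 on the CD8+ array and 512 ± 51.2 on the CD4+ array, 2.04-fold higher in CD8+ cells. Both were still over 2-fold with normexp. Ltb4r1, the leukotriene B4 receptor that draws effector cells to inflammation, had 4.97 ± 0.82 on the CD8+ array and 39.2 ± 3.96 on the CD4+ array, 7.89-fold higher in CD4+ cells (2.64-fold with normexp). Hrh1, a histamine receptor, and Adora1, an adenosine receptor, were 4.74-fold and 2.11-fold higher in CD4+ cells from signals below 20, and 1.70-fold and 1.16-fold with normexp. Adora3, above background on the CD4+ array alone, was at least 2.03-fold higher there (1.33-fold with normexp). Adora2a, the adenosine receptor that raises cyclic AMP in T cells, had 235 ± 23.5 on the CD8+ array and 228 ± 22.9 on the CD4+ array.

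Markers of other spleen cells were present on both arrays, and several lists differed on the same side as the receptors. All 8 dendritic cell markers were above background on both arrays, 7 of them lower on the CD8+ array, with a median of -1.06. Their scaled signals summed to 3836 on the CD8+ array and 4914 on the CD4+ array, of which Bst2 alone had 3451 and 4070. Siglech and Cd209a were 6.28-fold and 9.25-fold higher on the CD4+ array (3.26-fold and 2.55-fold with normexp). All 11 macrophage and monocyte markers were above background on both arrays, with sums of 7974 on the CD8+ array and 9210 on the CD4+ array; Lyz2 and Ccr2 were 4.49-fold and 6.41-fold higher on the CD4+ array (3.66-fold and 3.72-fold with normexp), while Csf1r and C1qa were level at 0.05 and -0.01. Sucnr1, Ffar2, Gpr183 and the Ptger genes are also known from myeloid cells and lay on the same side, as did Adgre1, itself one of the 11 macrophage and monocyte markers.

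Natural killer cell markers summed to 1554 on the CD8+ array and 2675 on the CD4+ array. Most of that gap came from Tyrobp, the brightest of the list, with 888 on the CD8+ array and 1999 on the CD4+ array. Of the list, 7 of 8 were above background on both arrays and Klre1 on neither. The median of these 7 was -0.45. Eomes, a transcription factor that CD8+ T cells also use, was 10.03-fold higher on the CD8+ array, and Klra8 and Klrc1 were higher there by 0.44 and 0.47. The other 4, Klrb1c, Ncr1, Tyrobp and Fcer1g, were 5.07-fold, 4.40-fold, 2.25-fold and 1.36-fold higher on the CD4+ array. With normexp these 4 were 3.14-fold, 1.62-fold, 2.32-fold and 1.29-fold higher there. Plasma cell markers summed to 509 on the CD8+ array and 754 on the CD4+ array, with 6 of 7 above background on both. B cell markers went the other way, with 8 of 8 above background on both, 7 higher on the CD8+ array, a median of 0.63 and sums of 4127 on the CD8+ array and 3128 on the CD4+ array. Platelet markers summed to 104 on the CD8+ array and 71.3 on the CD4+ array, with 5 of 7 above background on both. Neutrophil, erythroid, mast cell and stromal markers had medians of 0.16, -0.22, -0.24 and 0.04, and Elane, Mcpt8, Ms4a2 and Siglecf were above background on neither array. The part of these cells in the receptor differences was not tested.

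**Figure D4:**
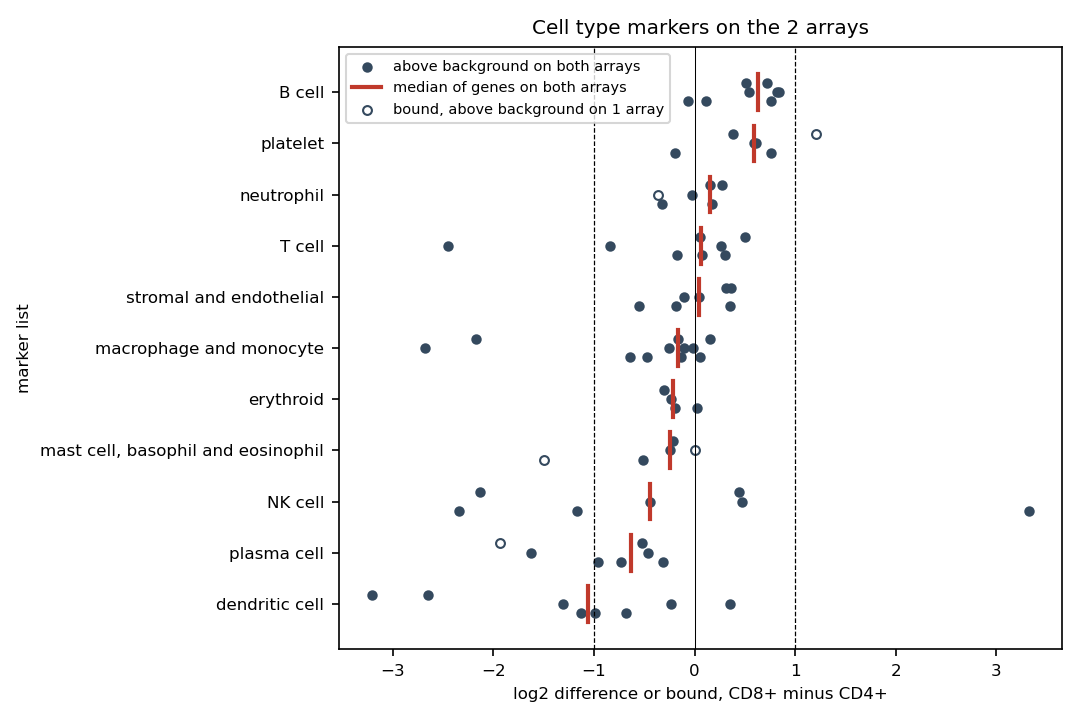
Log2 difference or bound, CD8+ minus CD4+ (horizontal axis), of each marker gene in 11 lists of cell type markers, ordered by median; filled points were above background on both arrays, open points on 1 array, and red bars are medians of the filled points. The B cell list lies to the right with a median of 0.63 and the dendritic cell list to the left with a median of -1.06, while the T cell list has a median of 0.06.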

How the data were processed

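RNA of 1 CD8+ and 1 CD4+ T cell sample was labelled with Cy3 and hybridised to a one-colour Agilent array each, per the labels' protocols. The deposited scanner files give linear spot intensity. Their headers name Feature Extraction 10.1.1.1, whereas version 9.1 stands in the submitters' processing notes. Their processed signal is background-subtracted and not scaled between arrays. The series values deposited by the authors equal the median pixel intensity at 45018 of 45018 spots on each array.

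Here log2 of the processed signal minus the array's 75th percentile over probes outside the controls was used (449.9 on the CD8+ array, 508 on the CD4+ array). Outlier spots were left out and saturated spots (212 on each array, no receptor probe among them) kept. Spots of a probe were averaged, and a gene took its brightest probe, first among those above background on both arrays; a probe counted as above background when all its spots did. The bound of a gene above background on 1 array used, for the dim array, the lowest signal above background or the probe's own signal if that was higher. Probes were named by transcript accession through a RefSeq table of GRCm38.p6, used for names and gene order alone, and 24840 of 41170 (60.3%) matched.

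Receptor genes were named if at least 2-fold apart, if of a family other than Gpr and Adgr, if among the 6 brightest adhesion or 10 brightest Gpr genes, or if next to the threshold. From each signalling list the genes at least 2-fold apart and the 3 brightest were named. Other genes named, and the groups of lysophosphatidylserine receptors and internal membrane proteins, were chosen after their values were seen. The values of a few genes that these rules give are not reported here. The receptor group and all lists were chosen with earlier results of these data known. With 1 array per group no test was run, and only the number of arrays sets the precision.

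Alternatives were normexp (offset 50) on the median signal and the median background, 3 other scalings, the series values, the mean over probes, saturated spots left out, outlier spots kept, no filter on dim probes, a 4-fold threshold, another detection flag and, added after seeing the data, brighter genes alone and genes of 1 array at their bound. The computation was tested on simulated data. Python 3.11.15, numpy 2.4.6, pandas 2.3.3, matplotlib 3.10.9, R 4.3.3 and limma 3.58.1 were used.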

Additional observations from a re-analysis of the deposited data

How the results depend on the processing

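The 14 receptor genes at least 2-fold apart, 5 on the CD8+ and 9 on the CD4+ side, became 5 (2 and 3) after normexp, 6 (3 and 3) from the series values, 27 (9 and 18) without a filter on dim probes, 6 (3 and 3) at a 4-fold threshold and 6 (2 and 4) over brighter genes alone. Scaling over probes above background on both arrays and the mean over probes gave 13, scaling to the median 15, and quantile normalization, leaving out saturated spots and keeping outliers 14. Among all genes measured on both arrays, the share at least 2-fold apart also fell on both sides after normexp and from the series values. Without a filter on dim probes the share of all genes rose on both sides. The direction of these changes was thus not particular to the receptor genes. The median difference of the receptor genes ran from -0.22 to 0.00. Where a dim filter was kept, no receptor gene measured on both arrays and at least 2-fold apart reversed its direction, and a bound could not reverse. Detection by the positive and significant flag gave 95 receptor genes on the CD8+ array and 104 on the CD4+ array. Under normexp 10 of the 14 differences were over 1.5 times smaller. The cause of these changes was not tested, apart from the smaller number of genes over brighter genes alone. Signals near background limit the dim receptors, and the error covers the spot alone, not the cells, the sort or the labelling. No paired analysis was possible because each cell type had 1 array, and for the same reason no replicate could be left out.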

Other observations

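Some receptor genes gave unlike values by probe. One probe of Adgrd1 had a scaled signal of 6.03 on the CD8+ array and 1.77, not well above background, on the CD4+ array, while the other had 2.42, not well above background, on the CD8+ array and 3.95 on the CD4+ array. The probes of Gpr37l1, a relative of the endothelin receptors, gave 0.29 and -0.61, both from scaled signals under 10. Over the 9 receptor genes with several probes above background on both arrays, the probes of a gene spanned a median of 0.16 and at most 0.90, and their signs differed for 2 genes, Gpr37l1 and Lpar6. Neighbouring receptor genes other than those described above included P2ry6 and P2ry2 on chromosome 7, at -0.79 and -0.21, and P2ry10, P2ry10b and Gpr174 on chromosome X, at -0.19, -0.30 and -0.10.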
